A study of Mus musculus with 4 samples.

Results

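Oxidative phosphorylation is carried out in the inner mitochondrial membrane by a chain of protein complexes. Complex I, which oxidises NADH, and complex II, which oxidises succinate, pass electrons through coenzyme Q to complex III and, by way of cytochrome c, to complex IV, which reduces oxygen. Complexes I, III and IV pump protons, and complex V, the ATP synthase, uses the gradient to make ATP, on which neurons depend for ion pumping and synaptic transmission. Most subunits are encoded in the nucleus and a few in mitochondrial DNA.

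The nuclear genes were taken as all probes whose annotated symbol begins with Nduf (complex I), Uqcr (complex III), Cox4 to Cox8 (complex IV) or Atp5 (complex V), with Sdha, Sdhb and Sdhc for complex II. These were 134 of the 45281 probes on the array and stood for 86 genes, with 68 probes in complex I, 6 in complex II, 10 in complex III, 21 in complex IV and 29 in complex V. By name the complex I set includes the assembly factors Ndufaf1 to Ndufaf8, which are not subunits, the transcribed pseudogene Ndufs5-ps, and Ndufa4, whose protein works in complex IV. Probes for the subunits encoded in mitochondrial DNA, and probes annotated to Uqcrb, Cox8a and Atp5g1, were not analysed here.

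Total RNA from mouse brain was hybridised to Illumina bead arrays, with 2 Atm+/+ and 2 Atm-/- samples, each on an array of its own, from animals on a mixed 129J x C57BL/6 background. Atm encodes a protein kinase activated by broken DNA, and its loss causes ataxia-telangiectasia in people. Neither the kind of Atm allele nor age, sex or brain region is stated, nor whether each sample came from its own animal. The p-values therefore rest on the scatter among these 4 arrays, which could be technical only. Values are deposited log2 signals, all changes are on that log2 scale, and a change is the Atm-/- mean minus the Atm+/+ mean, fitted by limma with its moderated standard error (SE) and adjusted over all tested probes by the Benjamini-Hochberg method. A probe was tested if it exceeded a background level of 5.64 on at least 2 of the 4 arrays, and "rose" and "fell" are used only at an adjusted p under 0.05. The Atm probe ILMN_1258206 read 7.75 and 7.84 on the Atm+/+ arrays and 5.59 and 5.27 on the Atm-/- arrays, an at least 4.46-fold lower signal in Atm-/-, where it is background (adjusted p = 0.00224). Another Atm probe, ILMN_2783896, was at least 1.77-fold lower (adjusted p = 0.0205). The probe ILMN_2492491 overlapped between the genotypes, with 9.72 and 9.32 in Atm+/+ and 9.66 and 10.61 in Atm-/-.

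In brain tissue, fewer cells of a type and less RNA per cell cannot be told apart. Brain-region markers differed widely between these same samples. Of 20 tested probes for cortex, hippocampus and striatum 18 rose and 0 fell, the signals of that list summing to between 8541 and 10224 on the Atm+/+ arrays and between 96066 and 101953 on the Atm-/- arrays. Of 16 tested cerebellar probes 14 fell and 0 rose, with sums of 90758 to 103230 against 7115 to 7605. A list of thalamus, hypothalamus and brainstem had 14 falls among 17 probes, astrocyte markers 4 falls among 12 and choroid plexus markers 8 falls among 11, each with 0 rises. Oligodendrocyte markers had 3 falls and 1 rise among 17, and endothelial and mural markers 2 rises and 0 falls among 8. Of 10 microglial probes 0 passed limma's threshold, and 5 were higher at an unadjusted p under 0.05. Pan-neuronal markers, which check the labelled tissue, had sums of 99139 to 102941 in Atm+/+ and of 177966 to 182258 in Atm-/-, 3 of 12 probes rising. The part of these differences in the results below was not tested.

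By the median, probes of all 5 complexes were lower in Atm-/- brain, and few passed the test singly. Complex II rested on 4 tested probes of 2 genes, and 2 of those probes overlapped between the genotypes. Of the 134 probes, 110 could be tested, standing for 78 genes. Of those 110, 12 fell and 1 rose, whereas over all 22383 tested probes 6.06% fell and 6.98% rose. The fitted difference was below 0 at 94 of the 110, or 85.5%, against 49.7% of all tested probes. Both Atm-/- arrays read below both Atm+/+ arrays at 83 probes, or 75.5%, against 30.3% of all tested probes. The reverse order held at 6 probes, against 29.4% of all tested probes, and 21 overlapped. The median difference was -0.61, a 1.52-fold lower signal, and that of all tested probes was 0.00. At an unadjusted p under 0.05, 50 members were lower and 1 was higher, against 14.9% and 15.1% of all tested probes. These members share arrays and were not tested as a set.

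**Figure D1:**
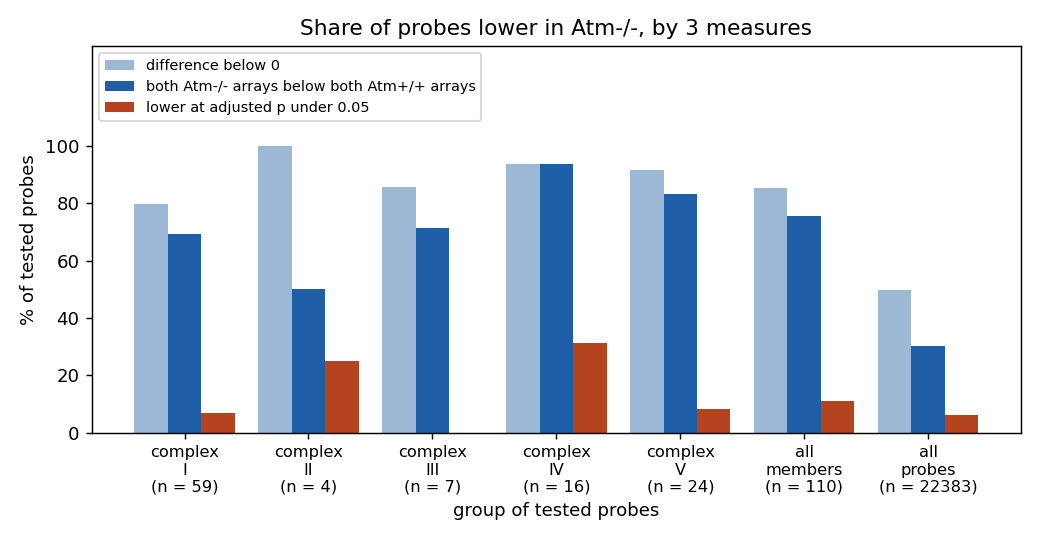
Share of tested probes (%) that were lower in Atm-/- by 3 measures, for each complex, for all members and for all tested probes; n is the number of tested probes. The share with both Atm-/- arrays below both Atm+/+ arrays is 69.5% in complex I, 93.8% in complex IV and 30.3% over all tested probes, while the share past the threshold is 6.78%, 31.2% and 6.06%.

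The filter on dim probes bears on these counts. A total of 103 members exceeded background on all 4 arrays, 3 on 3 arrays, and 4 passed through 1 genotype alone, so that these last had to differ. The 4 are Cox8b, Cox6a2 and 1 probe each of Atp5k and Atp5pb. With no filter, both Atm-/- arrays were lower at 93 of all 134 members, or 69.4%, against 24.9% of all 45281 probes. Among the 103 members bright on every array it was 78, or 75.7%, against 32.7% of all such probes. Sorted by mean signal in ranges chosen after the values were seen, the 22 members under 8 had a median difference of -0.25, with 13 below 0. The 16 members between 8 and 10 had a median of -0.64, the 27 between 10 and 12 one of -0.62, the 35 between 12 and 14 one of -0.64 and the 10 over 14 one of -0.62. The other probes of the 5 ranges had medians between -0.04 and 0.03.

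The Atm+/+ arrays differed from each other more than the Atm-/- arrays did. Over the tested members the median absolute gap was 0.37 between the Atm+/+ arrays and 0.15 between the Atm-/- arrays, against 0.40 and 0.19 for all tested probes. The change between genotypes exceeded the gap between the Atm+/+ arrays at 75 of 110 members and at 11846 of all 22383 tested probes. With 1 array left out, the lone sample of that genotype is assumed to vary like the other genotype's pair, so these fits take their spread from that pair alone. Members that fell numbered 53 without Atm+/+ replicate 1 and 40 without Atm+/+ replicate 2, but 2 without Atm-/- replicate 1 and 1 without Atm-/- replicate 2, while all tested probes gave falls of 18.5%, 16%, 1.14% and 1.25%. Of the 13 calls, 10 were lost without either Atm-/- array, and those kept were Cox6a2, Cox8b and, without Atm-/- replicate 1, Cox7a1. Between 91 and 98 of 110 members were below 0 whichever array was left out.

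**Figure D2:**
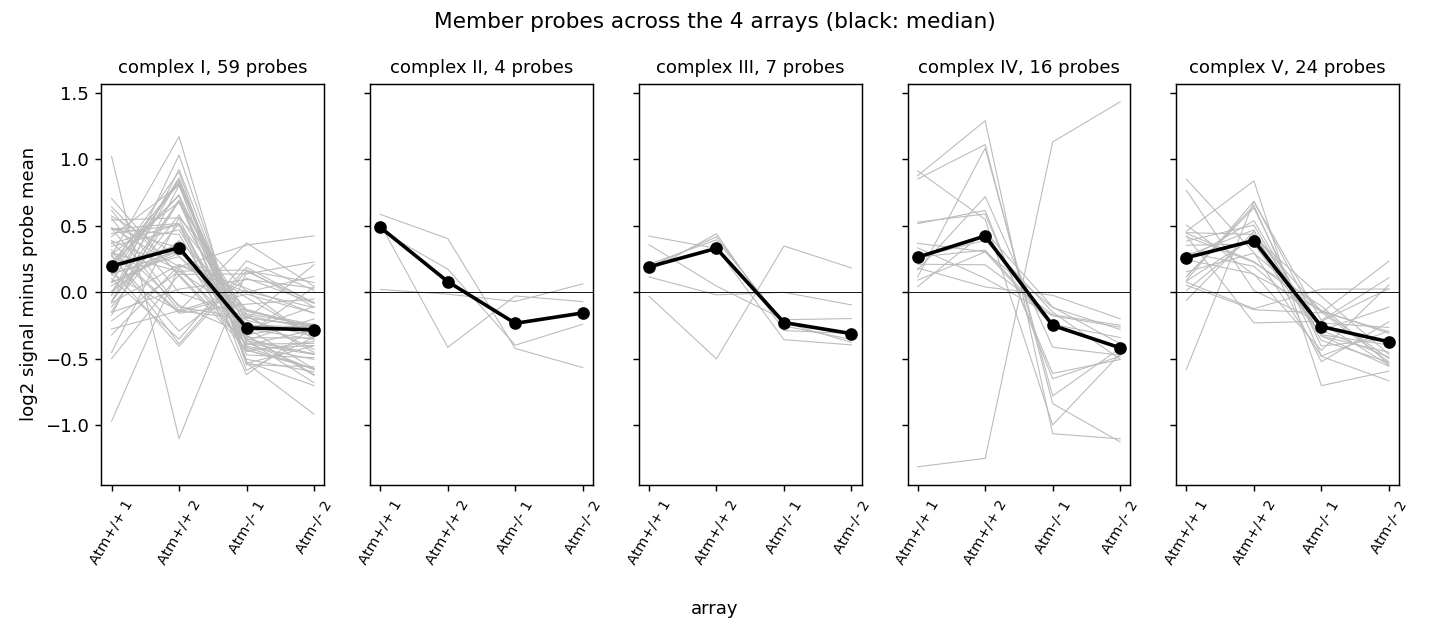
Log2 signal of each tested member probe on the 4 arrays minus that probe's mean over the 4, by complex. Grey lines join the values of a probe and black points are medians; the Atm+/+ medians lie above 0 and the Atm-/- medians below 0 in each complex, and the grey lines spread more on the Atm+/+ arrays.

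Promoters of some of the members that fell are shown so that the sequence 250 bases before to 50 after each start can be read beside the values. The set of promoters used here held 71 of the 86 genes, and the sequences are RefSeq's, build GRCm38.p6. They are those of Ndufb8 (chr19:44555393-44555692, minus strand), Ndufs8 (chr19:3912725-3913024, minus strand), Sdhb (chr4:140961021-140961320, plus strand), Cox7a1 (chr7:30183921-30184220, plus strand), Cox8b (chr7:140900397-140900696, minus strand) and Atp5e (chr2:174464052-174464351, minus strand), covering each complex with a fall. Capitals mark matches, on either strand, to motifs of factors known to bind promoters of respiratory or muscle genes.
Ndufb8: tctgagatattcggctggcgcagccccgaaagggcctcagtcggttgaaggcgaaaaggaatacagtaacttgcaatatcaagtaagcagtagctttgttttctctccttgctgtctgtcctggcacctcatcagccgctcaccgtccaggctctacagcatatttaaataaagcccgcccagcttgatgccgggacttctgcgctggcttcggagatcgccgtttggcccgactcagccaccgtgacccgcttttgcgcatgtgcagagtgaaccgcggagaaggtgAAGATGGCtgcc
Ndufs8: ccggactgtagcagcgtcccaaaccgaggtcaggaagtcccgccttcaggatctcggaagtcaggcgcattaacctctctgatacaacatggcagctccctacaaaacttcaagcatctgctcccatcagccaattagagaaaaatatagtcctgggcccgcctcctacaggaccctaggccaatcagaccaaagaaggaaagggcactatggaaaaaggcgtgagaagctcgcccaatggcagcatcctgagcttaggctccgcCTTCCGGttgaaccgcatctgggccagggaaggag
Sdhb: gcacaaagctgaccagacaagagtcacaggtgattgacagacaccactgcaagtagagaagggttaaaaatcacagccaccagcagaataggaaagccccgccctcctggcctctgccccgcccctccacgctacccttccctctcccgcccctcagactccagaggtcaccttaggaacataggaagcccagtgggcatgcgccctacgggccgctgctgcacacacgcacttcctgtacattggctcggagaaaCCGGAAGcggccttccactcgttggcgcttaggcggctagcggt
Cox7a1: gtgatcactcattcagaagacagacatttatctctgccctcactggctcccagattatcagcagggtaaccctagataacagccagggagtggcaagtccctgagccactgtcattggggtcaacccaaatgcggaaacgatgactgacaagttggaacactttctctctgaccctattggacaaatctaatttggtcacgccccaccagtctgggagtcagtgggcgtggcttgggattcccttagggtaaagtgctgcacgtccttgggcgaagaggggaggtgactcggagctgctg
Cox8b: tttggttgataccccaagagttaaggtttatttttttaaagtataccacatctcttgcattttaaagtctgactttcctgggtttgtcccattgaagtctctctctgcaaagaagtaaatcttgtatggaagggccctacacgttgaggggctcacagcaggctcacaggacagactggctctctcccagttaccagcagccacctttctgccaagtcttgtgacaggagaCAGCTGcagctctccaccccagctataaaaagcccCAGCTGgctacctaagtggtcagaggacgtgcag
Atp5e: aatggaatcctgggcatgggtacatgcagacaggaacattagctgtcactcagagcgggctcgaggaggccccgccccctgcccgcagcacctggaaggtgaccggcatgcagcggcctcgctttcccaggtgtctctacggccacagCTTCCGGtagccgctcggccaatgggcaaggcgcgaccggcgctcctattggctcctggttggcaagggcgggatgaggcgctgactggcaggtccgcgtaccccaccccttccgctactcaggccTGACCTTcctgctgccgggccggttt
The capitals are a YY1 motif, AAGATGGC, in Ndufb8, an ETS motif, CCGGAAG or its reverse complement, in Ndufs8, Sdhb and Atp5e, a site of the estrogen-related receptors, AAGGTCA, as its reverse complement in Atp5e and paired E-boxes, CAGCTG, in Cox8b. Cox7a1 held none of these, nor the motif of NRF1, searched as GCGC, any base and TGCGC, nor that of MEF2, CTA and TAG with 4 bases between.

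Over the 71 member promoters, the NRF1 motif was in 22.5% against 4.78% of all 27025 promoters and the ETS motif in 22.5% against 9.12%. YY1 letters were in 14.1% against 2.88%, and the receptor site in 8.45% against 4.66%. The E-box, in 7.04% against 16.1%, and the MEF2 motif, in 2.82% against 3.7%, were no more common than elsewhere. Among the 11 genes past the threshold that had a promoter, 1 held the NRF1, 3 the ETS and 2 the YY1 letters. Of those not printed, Ndufc1 held the YY1 letters and Ndufaf5 the NRF1 and MEF2 letters. Cox6b2, Cox7a2 and Cox7b, also not printed, held none of the motifs searched. Matches to the motifs do not overlap in the promoters printed, and they describe letters only.

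Complex I, the largest set, was lower at most of its probes, with 4 falls and 0 rises among 59 tested probes of 41 genes. At 6.78% the falls were close to the 6.06% of all tested probes. The median difference was -0.56, with the middle 50% of the probes between -0.89 and -0.16. Both Atm-/- arrays were below both Atm+/+ arrays at 41 of 59 probes, or 69.5%, against 30.3% of all tested probes.

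The peripheral arm of complex I holds the flavin and the iron-sulphur clusters through which electrons pass from NADH to coenzyme Q. Ndufs8, which carries iron-sulphur clusters close to the quinone site, read 12.86 and 12.90 on the Atm+/+ arrays and 11.97 and 11.80 on the Atm-/- arrays. It fell by 0.99 ± 0.25 (SE, n = 2 arrays each, adjusted p = 0.0432), a call also lost with cyclic loess scaling. Its neighbour Ndufs7, which ligates the last cluster of the chain, read 13.41 and 13.37 in Atm+/+ and 12.53 and 12.43 in Atm-/-, a difference of -0.91 ± 0.25 (adjusted p = 0.0541). The genotypes did not overlap at either probe.

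The flavoprotein subunit Ndufv1, which binds NADH, did not share that pattern. Its probe read 13.95 and 13.37 in Atm+/+ and 13.94 and 13.85 in Atm-/-, so the genotypes overlapped, with a difference of 0.23 ± 0.29 (adjusted p = 0.637). Ndufv2, its partner with an iron-sulphur cluster, differed by -0.56 ± 0.25 (adjusted p = 0.190) and Ndufs3, a core subunit beside the quinone site, by -0.45 ± 0.25 (adjusted p = 0.278). The only probe for Ndufs1, the largest subunit of the arm, was at background on all 4 arrays, so no level of it was measured. Of 21 tested probes in the peripheral arm 1 fell, or 4.76%, against 6.06% of all tested probes. Both Atm-/- arrays were lower at 16, or 76.2%, against 30.3% of all tested probes, and the median was -0.45.

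The membrane arm, where protons are pumped, had 2 falls among 23 tested probes, or 8.7%, near the 6.06% of all tested probes. Both Atm-/- arrays were lower at 15, or 65.2%, against 30.3% of all tested probes, and the median was -0.62. Ndufc1, a small accessory subunit, had the lowest difference of complex I. It read 11.70 and 12.59 on the Atm+/+ arrays and 10.89 and 10.51 on the Atm-/- arrays at ILMN_2983247 and fell by 1.45 ± 0.35 (SE, n = 2 arrays each, adjusted p = 0.0394), while its other probe, ILMN_1229975, differed by -0.84 ± 0.27 (adjusted p = 0.0847). The call was also lost with no filter on dim probes. Ndufb8, another accessory subunit, read 14.17 and 14.19 on the Atm+/+ arrays and 13.13 and 13.03 on the Atm-/- arrays at ILMN_2621966, with close replicates in both genotypes. It fell by 1.10 ± 0.25 (SE, n = 2 arrays each, adjusted p = 0.0298), while its dim probe ILMN_2501071 overlapped, at -0.11 ± 0.36.

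Accessory genes of both arms lay near these without passing the test. Ndufa12 differed by -1.10 ± 0.31 (adjusted p = 0.0584), Ndufa6 by -1.01 ± 0.31, Ndufa11 by -0.96 ± 0.27 and Ndufa13, also known as a regulator of cell death, by -0.81 ± 0.25. Several such probes had a wide gap between the Atm+/+ arrays, as at Ndufs5-ps, with 12.07 and 13.12 in Atm+/+ and 11.66 and 11.52 in Atm-/-. All 4 probes of Ndufab1, the mitochondrial acyl carrier protein bound to the complex, had both Atm-/- arrays lower, with differences between -0.95 and -0.41. Ndufa4 read 14.21 and 14.74 in Atm+/+ and 13.43 and 13.68 in Atm-/-, a difference of -0.92 ± 0.29 (adjusted p = 0.0804). Ndufa10 and the Ndufa8 probe ILMN_2682019 lay on the other side of 0, at 0.13 ± 0.25 and 0.12 ± 0.28.

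Assembly factors, which help build complex I and leave it, were mixed in sign. Of their 9 tested probes 4 were below 0, and the median was 0.02. At those 4, or 44.4%, both Atm-/- arrays were lower, against 30.3% of all tested probes, and at 1 both were higher. At an unadjusted p under 0.05 by limma, 3 were lower and 0 higher, against 14.9% and 15.1% of all tested probes. Ndufaf5, a factor that modifies Ndufs7, read 10.70 and 11.09 on the Atm+/+ arrays and 9.76 and 9.58 on the Atm-/- arrays at ILMN_2747677 and fell by 1.22 ± 0.27 (SE, n = 2 arrays each, adjusted p = 0.0284). At ILMN_1216813 the same gene differed by 0.08 ± 0.61, but there the Atm+/+ arrays themselves lay far apart, at 8.87 and 6.75. The difference between assembly factors and subunits was not tested.

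**Figure D3:**
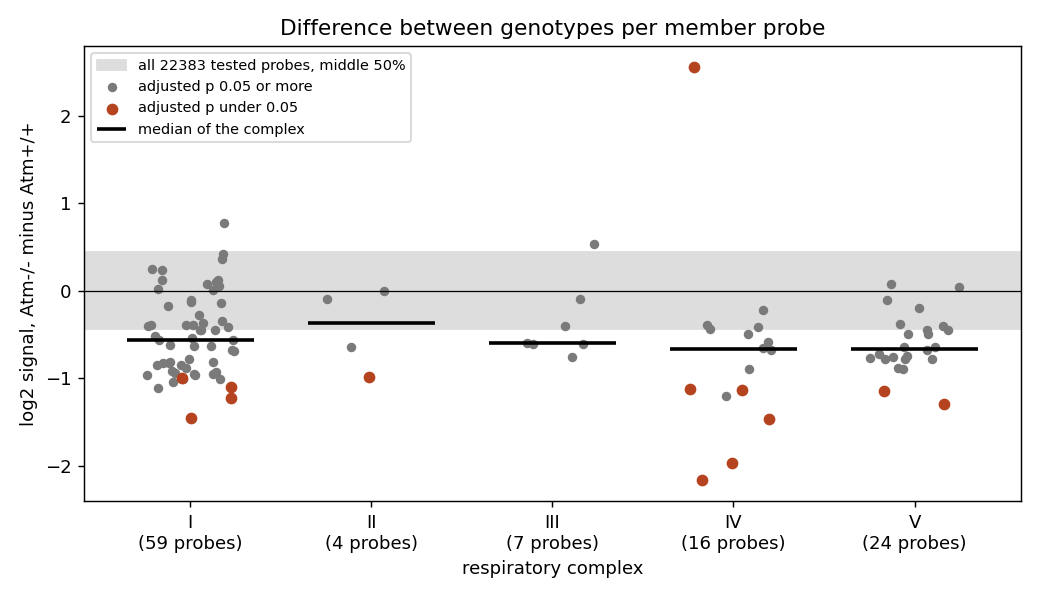
Log2 difference between Atm-/- and Atm+/+ at each tested member probe, by complex, with probes past the threshold in red, the median of each complex as a bar and the middle 50% of all tested probes as a grey band. Medians lie between -0.66 and -0.37, and complex IV holds both the lowest value, -2.16, and the highest, 2.56.

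Complex II, which is also the succinate dehydrogenase of the citric acid cycle, rested on few probes. Of 4 tested probes 1 fell and 0 rose, where 6.06% of all tested probes fell and 6.98% rose. The median was -0.37. The iron-sulphur subunit Sdhb read 11.70 and 11.52 on the Atm+/+ arrays and 10.70 and 10.55 on the Atm-/- arrays at ILMN_2769065 and fell by 0.99 ± 0.25 (SE, n = 2 arrays each, adjusted p = 0.0455), a call also lost with cyclic loess scaling. Its other probes differed by -0.64 ± 0.26 (adjusted p = 0.152) and, close to background, -0.10 ± 0.35. Sdhc, a membrane anchor subunit, read 12.17 and 12.14 in Atm+/+ and 12.08 and 12.22 in Atm-/-, with overlap and a difference of -0.01 ± 0.25. The flavoprotein Sdha was at background on all 4 arrays at its only probe.

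Complex III, the cytochrome bc1 complex, had 0 falls and 0 rises among 7 tested probes by limma. Over all tested probes 6.06% fell and 6.98% rose. At an unadjusted p under 0.05 by limma, 3 probes were lower and 0 higher, against 14.9% and 15.1% of all tested probes. Both Atm-/- arrays were lower at 5 of 7, or 71.4%, against 30.3% of all tested probes, and the median was -0.60. The hinge subunit Uqcrh read 13.82 and 13.73 in Atm+/+ and 13.04 and 13.00 in Atm-/-, a difference of -0.75 ± 0.25 (adjusted p = 0.0906), the lowest of the complex. Core subunit Uqcrc2 differed by -0.40 ± 0.26 (adjusted p = 0.341) and Uqcrc1 by -0.10 ± 0.25 (adjusted p = 0.838), the arrays of Uqcrc1 overlapping. Uqcrq, a small subunit next to cytochrome b, had the highest difference, 0.53 ± 0.28 (adjusted p = 0.250), with 7.85 and 7.38 in Atm+/+ and 8.23 and 8.07 in Atm-/-. Both probes of the Rieske iron-sulphur protein Uqcrfs1 were too dim to test.

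Complex IV, cytochrome c oxidase, held the widest changes, and its tissue isoforms went both ways. Of 16 tested probes 5 fell and 1 rose, or 31.2% and 6.25%, against 6.06% and 6.98% of all tested probes. Both Atm-/- arrays were lower at 15 and higher at 1, against 30.3% and 29.4% of all tested probes. The 16 include Cox8b and Cox6a2, which passed the filter through 1 genotype and so had to differ. The median was -0.66. Broadly expressed subunits lay below 0 at 11 of 11 tested probes, against 49.7% of all tested probes, with a median of -0.65. Their 2 falls made up 18.2%, against 6.06% of all tested probes.

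Tissue isoforms replace a common subunit in particular organs. Cox8b, an isoform of heart, skeletal muscle and brown fat, read 7.31 and 7.72 on the Atm+/+ arrays and 5.37 and 5.34 on the Atm-/- arrays, the last 2 being background. It was at least 3.68-fold lower in Atm-/-, with a fitted change of -2.16 ± 0.27 (adjusted p = 0.00372). Cox7a1, the isoform of heart and skeletal muscle, read 9.23 and 9.49 on the Atm+/+ arrays and 7.54 and 7.26 on the Atm-/- arrays and fell by 1.96 ± 0.27 (SE, n = 2 arrays each, adjusted p = 0.00520), a 3.89-fold lower signal. The testis isoform Cox6b2 fell by 1.11 ± 0.25 (SE, n = 2 arrays each, adjusted p = 0.0289), reading 7.13 and 7.20 in Atm+/+ and 6.00 and 6.10 in Atm-/-.

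Cox6a2, a further heart and skeletal muscle isoform, went the opposite way. It read 5.34 and 5.41 on the Atm+/+ arrays and 7.78 and 8.09 on the Atm-/- arrays, where both Atm+/+ values are background. The signal was at least 4.91-fold higher in Atm-/-, with a fitted change of 2.56 ± 0.26 (adjusted p = 0.00167). Over the alternatives in which they could be fitted, the adjusted p was at most 0.0181 for Cox6a2 and 0.0366 for Cox8b, for probes that the filter kept through 1 genotype. Cox7a1 was lost without Atm-/- replicate 2 (adjusted p = 0.0735).

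Markers of striated muscle are given beside these isoforms. Of 14 probes 3 could be tested, 1 rose and 0 fell, and 7 of 10 genes, among them Ckm, Myh6 and Actc1, were at background on all 4 arrays. The one that rose, the skeletal muscle actin gene Acta1, read 7.20 and 5.14 in Atm+/+ and 9.64 and 9.55 in Atm-/-. Summed signals of the list were 565 to 666 in Atm+/+ and 1303 to 1349 in Atm-/-. For brown fat, Ucp1, its uncoupling protein, was at background on all arrays, while Cidea fell by 1.03 ± 0.27 (SE, n = 2 arrays each, adjusted p = 0.0465). Pvalb, a cerebellar list member and marker of fast-spiking interneurons, in which Cox6a2 is known in mouse brain, read 15.47 and 15.51 in Atm+/+ and 12.13 and 12.13 in Atm-/-. As 14 of the 16 tested cerebellar probes fell, the Pvalb value cannot tell such interneurons from cerebellar cells. The part of these cells in the isoform values was not tested.

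**Figure D4:**
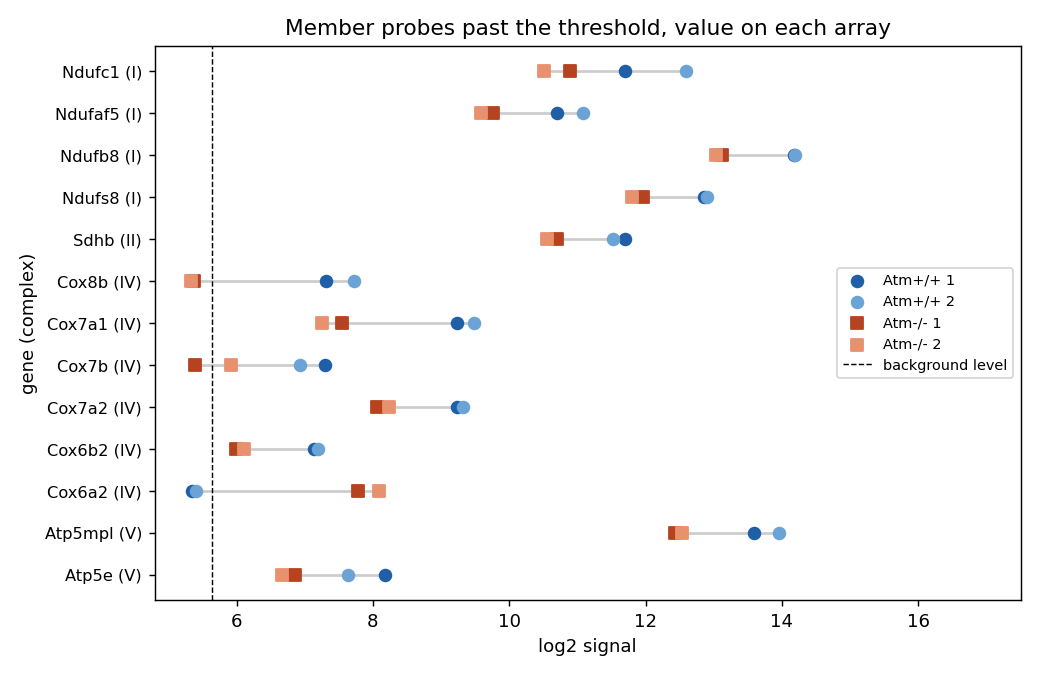
Log2 signal on each array for the 13 member probes past the threshold, Atm+/+ as circles and Atm-/- as squares, with the background level as a dashed line. Cox6a2 is the single gene with both Atm-/- values on the right, and the Cox8b values in Atm-/-, the Cox6a2 values in Atm+/+ and 1 Cox7b value in Atm-/- lie under the background level.

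Among the common counterparts of these isoforms, Cox7a2 read 9.23 and 9.33 on the Atm+/+ arrays and 8.06 and 8.23 on the Atm-/- arrays and fell by 1.13 ± 0.25 (SE, n = 2 arrays each, adjusted p = 0.0289), the same direction as Cox7a1. Cox6a1, the common form of Cox6a2, differed by -0.65 ± 0.27 and -0.50 ± 0.28 at its probes and Cox6b1 by -0.67 ± 0.25 and -0.42 ± 0.25, with adjusted p between 0.123 and 0.304. Cox7a2l, which joins complexes III and IV into supercomplexes, differed by -0.44 ± 0.25 (adjusted p = 0.295). The remaining isoform genes Cox4i2, Cox7b2 and Cox8c were too dim to test.

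Cox7b, a small subunit in the membrane, fell by 1.46 ± 0.30 (SE, n = 2 arrays each, adjusted p = 0.0223), reading 7.29 and 6.93 in Atm+/+ and 5.39 and 5.92 in Atm-/-, of which 5.39 is background. Cox6c differed by -1.20 ± 0.37, but its Atm+/+ arrays were 0.97 apart (adjusted p = 0.0748). Cox4i1 and Cox5a, which surround the mitochondrially encoded core, differed by -0.22 ± 0.25 and -0.89 ± 0.29. Cox5b, a zinc-binding subunit, differed by -0.58 ± 0.25 and -0.39 ± 0.26 at its tested probes, with adjusted p of 0.168 and 0.347.

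Complex V, the ATP synthase, was lower at nearly all tested probes, with 2 falls and 0 rises among 24 probes of 16 genes. At 8.33% the falls were near the 6.06% of all tested probes. Both Atm-/- arrays were below both Atm+/+ arrays at 20 of the 24, or 83.3%, against 30.3% of all tested probes. The 20 include 1 probe each of Atp5k and Atp5pb, which passed the filter through 1 genotype and so had to differ. The median was -0.66. The lowest value was that of Atp5mpl, a small protein associated with the synthase, which read 13.59 and 13.96 on the Atm+/+ arrays and 12.43 and 12.54 on the Atm-/- arrays at ILMN_1239677. It fell by 1.29 ± 0.27 (SE, n = 2 arrays each, adjusted p = 0.0228), and its dim probe ILMN_1258022 differed by -0.50 ± 0.28.

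In the catalytic head and central stalk, Atp5e, the epsilon subunit, read 8.18 and 7.63 on the Atm+/+ arrays and 6.85 and 6.67 on the Atm-/- arrays and fell by 1.15 ± 0.29 (SE, n = 2 arrays each, adjusted p = 0.0433). That call was also lost with no filter and with an intensity trend. The gamma subunit Atp5c1 differed by -0.49 ± 0.25 and the delta subunit Atp5d by -0.45 ± 0.25, neither passing the test. The alpha subunit Atp5a1 differed by -0.19 ± 0.31 and -0.40 ± 0.28 at its probes. The catalytic beta subunit Atp5b read 16.08 and 15.88 in Atm+/+ and 16.03 and 16.03 in Atm-/-, a difference of 0.05 ± 0.25 (adjusted p = 0.923), next to the highest value of 16.1 that any probe has on these arrays.

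The peripheral stalk, which holds the head still, and the small membrane subunits were lower throughout most of their probes. Of 9 tested stalk probes 0 fell by limma's adjusted p, against 6.06% of all tested probes. By limma 5 had an unadjusted p under 0.05, all lower, where 14.9% of all tested probes were lower and 15.1% higher. Both Atm-/- arrays were lower at 8, or 88.9%, against 30.3% of all tested probes, and the median was -0.67. The 8 include an Atp5pb probe that passed the filter through 1 genotype and so had to differ. The 4 tested probes of Atp5pb lay between -0.78 and 0.08. The stalk subunit Atp5o differed by -0.77 ± 0.30 and -0.77 ± 0.29 at its tested probes, Atp5h by -0.67 ± 0.27 and Atp5j by -0.72 ± 0.25 and -0.64 ± 0.28. The small membrane subunits Atp5j2, Atp5k, Atp5l, Atp5md and Atp5mpl had 7 tested probes, with a median of -0.78. All 7 had both Atm-/- arrays lower, against 30.3% of all tested probes, and the Atp5k probe was 1 of those that had to differ. In the proton-carrying c ring, Atp5g3 differed by -0.44 ± 0.27 (adjusted p = 0.322) and Atp5g2 by -0.10 ± 0.42, its Atm+/+ arrays lying 1.26 apart.

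Different probes of a gene did not always agree. Of 24 member genes with more than 1 tested probe, 16 had all differences on 1 side of 0 and 8 had both signs. In 3 of these the probes lay over 1 log2 unit apart: Ndufaf5, as above, Ndufs6 at -0.39 ± 0.27 and 0.78 ± 0.39, and Ndufb6 at -0.68 ± 0.30 and 0.42 ± 0.26. The positive values of Ndufs6, the highest of complex I, and Ndufb6 came from dim probes with means under 8.4 in both genotypes. Many of these genes have processed pseudogenes, and cross-hybridisation to near-identical copies could not be checked without probe sequences.

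Genes that work with the complexes were counted as lists. The 179 tested probes of the 10 lists had 6 rises and 8 falls, where 6.98% of all tested probes rose and 6.06% fell. Of the falls, 2 were the Ndufaf5 and Atp5mpl probes above. Of the other 12 calls 0 were kept without Atm-/- replicate 1 and 2, both of Esrrg, without Atm-/- replicate 2. Complex II assembly factors had a median of -0.67 over 6 probes, with 0 calls by limma. Both Atm-/- arrays were lower at 5 of these, or 83.3%, against 30.3% of all tested probes. The partners of complex III, cytochrome c among them, had a median of 0.12 over 13 probes and 1 rise, that of the assembly factor Ttc19, by 1.40 (adjusted p = 0.0204). Complex IV assembly factors had a median of -0.18 over 31 probes, Cox18 rising by 1.57 (adjusted p = 0.0142) and Cmc1 falling by 1.03 (adjusted p = 0.0386). Factors of complexes I and V had medians of 0.09 and 0.01. The first list shares Ndufaf1 to Ndufaf7 with the members and leaves out Ndufaf8, which differed by -1.04. The second shares Atp5md and Atp5mpl.

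Glycolysis, which breaks glucose down to pyruvate in the cytosol, had 4 rises and 1 fall among 25 tested probes and a median of 0.31, where 6.98% of all tested probes rose and 6.06% fell. The 3 genes of phosphofructokinase, the committed step, rose: Pfkl, reading 11.88 and 11.51 in Atm+/+ and 13.31 and 13.25 in Atm-/-, rose by 1.58 ± 0.26 (SE, n = 2 arrays each, adjusted p = 0.0109), Pfkm by 1.39 (adjusted p = 0.0414) and Pfkp by 1.12 (adjusted p = 0.0493). The triosephosphate isomerase gene Tpi1 also rose, by 1.32 (adjusted p = 0.0398). With no filter on dim probes the calls of Pfkm, Pfkp and Tpi1 were lost. Aldoc, the brain aldolase and an astrocyte marker, fell by 1.31 (adjusted p = 0.0275).

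The citric acid cycle with pyruvate dehydrogenase had 0 rises and 2 falls among 25 probes and a median of -0.12. The falls made up 8% of the probes, near the 6.06% over all tested probes. The falls were Dlat, the acetyltransferase of pyruvate dehydrogenase, by 1.09 (adjusted p = 0.0322), and Suclg2, a succinyl-CoA ligase subunit, by 0.99 (adjusted p = 0.0457), a call also lost with cyclic loess scaling. Carriers of adenine nucleotides and phosphate, with the outer membrane channels, had a median of 0.02 over 11 probes and coenzyme Q synthesis one of 0.12 over 16, both with 0 calls by limma. At an unadjusted p under 0.05, 2 and 4 of their probes were higher and 1 of each was lower, where 15.1% of all tested probes were higher and 14.9% lower.

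Regulators of mitochondrial biogenesis had 2 falls, or 8.33%, and 0 rises among 24 probes, where 6.06% of all tested probes fell. Their median was -0.38. Both falls were of Esrrg, the estrogen-related receptor gamma, a nuclear receptor known to activate respiratory genes. It read 10.40 and 10.22 on the Atm+/+ arrays and 7.98 and 8.39 on the Atm-/- arrays at ILMN_2695098, with a fall of 2.13 ± 0.27 (adjusted p = 0.00415). At ILMN_2973156 it fell by 1.91 (adjusted p = 0.00468). Without Atm-/- replicate 1 the adjusted p was 0.056 and 0.0703. No probe of Ppargc1a, Nrf1, Gabpa or Tfam passed the test.

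**Figure D5:**
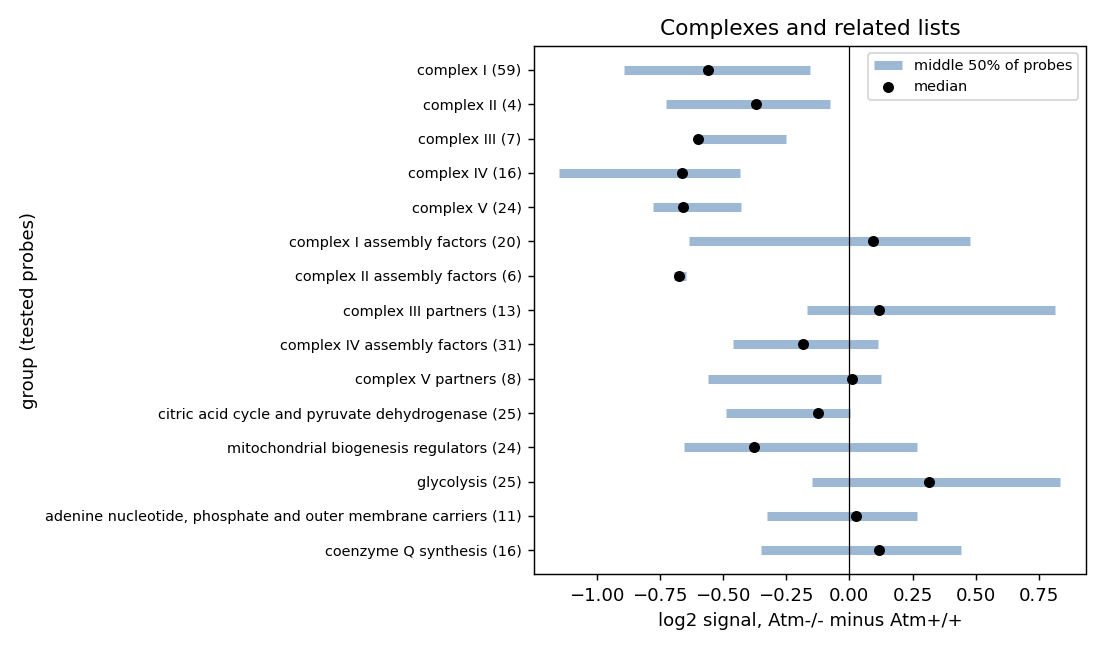
Median log2 difference between Atm-/- and Atm+/+ (points) and the middle 50% of tested probes (bars) for the 5 complexes and 10 related lists, with the number of tested probes in brackets. The complexes, the complex II assembly factors and the biogenesis regulators lie between -0.67 and -0.37, and glycolysis at 0.31. The complex I assembly factors and the complex V partners share some genes with the complexes.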

How the data were processed

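The values used were the log2 signals that the authors deposited as the series' value table, 45281 probes on 4 arrays; how background was treated, which software was run and how arrays were normalized is not given in the sources used here. The log base was inferred from the range of 4.47 to 16.1. Sorted arrays differed by at most 0.0792 at equal rank, as quantile normalization would leave them, so a shift of most genes 1 way cannot be seen. A table of signals before normalization has 8 columns of per-sample values whose names match no single sample, and these were not used. RNA was extracted with Trizol, per the labels' protocol. Genotypes came from the genotype labels and replicate numbers from the titles.

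Background was the mode of all values (5.05, density bandwidth 0.05) plus 3 SD of the values under it (0.195), and 22383 probes above it on at least 2 arrays were fitted with limma 3.58.1 in R 4.3.3, with 2 residual and 5.22 prior degrees of freedom. The fit was tested on simulated data. Bounds written "at least" set the brighter mean against the background level. Symbols came from the platform annotation, where 34885 probes have 1 symbol, 18 several and 10378 none; a RefSeq gene table changed 0 of them. The listed glycolysis genes Gpi1 and Eno1 were not analysed here. Promoters were searched with Python 3.11.15.

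Genes were named by rule: every member past the threshold, the highest and lowest of each complex, core subunits, isoform sets, genes with disagreeing probes, and list probes past the threshold; other members serve as examples and were chosen after their values were seen. The members, lists and rule were chosen with earlier results of these data known. The number of arrays limits the precision. Same-numbered samples did not deviate together beyond a correlation of 0.059. Alternatives covered the filter, an intensity trend, scaling, a replicate block, array weights, single arrays left out and genes in place of probes.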

Additional observations from a re-analysis of the deposited data

How the results depend on the processing

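The direction of the 5 complex medians was the same under every alternative run, and 91 to 98 of 110 tested members lay below 0 with 1 array left out, a count added after the data were seen. Counts of calls depended on the processing. Of the 13 member calls all were kept without either Atm+/+ array, 3 without Atm-/- replicate 1 and 2 without Atm-/- replicate 2, and only Cox6a2 and Cox8b, which passed the filter through 1 genotype, stood in all alternatives in which they could be fitted. With 1 array left out, the spread comes from the other genotype's pair alone. Over all members the 13 calls became 31 with an intensity trend, 28 with the replicate block and 2 to 56 with 1 array left out. The replicate numbers share only a number (correlation of deviations 0.059), so the block does not stand for paired animals.

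For complex I the 4 calls became 7 on probes bright on all 4 arrays and with genes in place of probes (by the brightest probe or by the mean), 15 with the trend, 16 with the block and 0 to 28 with 1 array left out. Complex II went from 1 to 0 with cyclic loess and with gene means, and 0 to 2 with 1 array left out. Complex III went from 0 to 1 with the trend and 0 to 5 with 1 array left out. Complex IV went from 6 to 3 on probes bright on all 4 arrays, where Cox6a2, Cox8b and Cox7b cannot be tested, and 2 to 10 with 1 array left out. Complex V went from 2 to 1 with no filter, 5 with the trend, 4 with the block and with gene means, and 0 to 12 with 1 array left out. The 14 calls of the related lists became 24 with the trend, 25 with the block and 0 to 63 with 1 array left out.

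With no filter the medians of complexes II, III and V were -0.15, -0.26 and -0.50, through the dim probes added, and cyclic loess gave -0.54 in complex III. With 1 array left out they ran from -0.67 to -0.24 in complex II and from -0.70 to -0.49 in complex III. Among the probes named by rule, those whose sign reversed had no call in the main setting, and they reversed with 1 array left out. Sign changes at other member probes are not listed. The range was -0.98 to 1.14 for Ndufaf5 ILMN_1216813 (adjusted p = 0.0105 and 0.00416 without Atm+/+ replicate 2 and 1), -0.56 to 0.36 for Sdhb ILMN_2592389, -0.073 to 0.060 for Sdhc, -0.052 to 0.15 for Atp5b, -0.52 to 0.13 for Atp5a1 ILMN_2633229, -0.73 to 0.53 for Atp5g2, -0.053 to 0.52 for Ndufv1 and -0.12 to 0.27 for Atp5pb ILMN_2717599. Cyclic loess also turned Sdhc, to 0.054. Apart from the added dim probes and left-out arrays, the cause of these moves was not tested. Signal over background limits the 24 untested members, and the top of the range limits Atp5b.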
